A study of Homo sapiens with 4 samples.

Results

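The E2F and DP transcription factors are represented here by 10 genes: the activators E2F1, E2F2 and E2F3, the repressors E2F4, E2F5 and E2F6, the atypical members E2F7 and E2F8, and the dimer partners TFDP1 and TFDP2. They are the genes of this family whose symbol was the only symbol the platform annotation gave to a row of the deposited table. Each had 1 row, and the table held 18377 genes with such rows. RNA came from HuCCT1, an established human cholangiocarcinoma (bile duct cancer) cell line, and was hybridised to 4 Affymetrix Human Gene 1.0 ST arrays, which carry probes along the exons of each transcript. The labels give 1 array each to cells with the agent VPA, cells with GEM, cells with both (GEM_VPA, called the combination here), and untreated control cells. The labels do not spell out the agents. In cancer cells VPA usually stands for valproic acid, a histone deacetylase inhibitor, and GEM for gemcitabine, a nucleoside analogue. The labels give no dose, exposure time, vehicle, or culture or scan batch. All cells were of a single line, so the values describe that line.

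E2F proteins control genes needed for entry into S phase. The activators drive these genes when cyclin-dependent kinases release them from the retinoblastoma protein, whereas E2F4 and E2F5 work mainly with the related pocket proteins p107 and p130 to hold them silent in resting cells. E2F6 lacks the pocket-protein binding region and represses together with Polycomb proteins. These E2Fs bind DNA as a dimer with a DP protein, encoded by TFDP1 or TFDP2. E2F7 and E2F8 need no DP partner and repress G1/S genes, E2F1 among them, late in S phase. Several E2F genes are themselves known E2F targets.

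E2F sites of that kind can be read in the start regions of the family. Windows from 250 bases before to 50 bases after the annotated start (RefSeq, build GRCh38.p14) were searched on both strands for the 8-letter forms TTTCGCGC, TTTGGCGC, TTTCCCGC and TTTGCCGC of the E2F site. E2F5 and E2F8 were not searched. Of the 8 family genes searched, 4 held a match at any of their starts, and these are shown because they hold the matches. The windows lie at chr20:33686336-33686635 (minus strand) for E2F1, chr1:23531184-23531483 (minus strand) for E2F2, chr6:20401629-20401928 (plus strand, the upstream of its 2 listed starts) for E2F3 and chr13:113584503-113584802 (plus strand) for TFDP1. Each is written 5′ to 3′ on the strand of the gene, with the matches in capitals, in the gene's own strand or as the reverse complement.
E2F1: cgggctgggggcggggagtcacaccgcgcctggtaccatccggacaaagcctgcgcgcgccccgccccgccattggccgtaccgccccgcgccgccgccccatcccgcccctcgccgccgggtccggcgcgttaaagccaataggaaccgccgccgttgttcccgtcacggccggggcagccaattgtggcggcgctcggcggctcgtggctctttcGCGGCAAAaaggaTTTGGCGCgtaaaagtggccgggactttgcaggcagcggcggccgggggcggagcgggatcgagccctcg
E2F2: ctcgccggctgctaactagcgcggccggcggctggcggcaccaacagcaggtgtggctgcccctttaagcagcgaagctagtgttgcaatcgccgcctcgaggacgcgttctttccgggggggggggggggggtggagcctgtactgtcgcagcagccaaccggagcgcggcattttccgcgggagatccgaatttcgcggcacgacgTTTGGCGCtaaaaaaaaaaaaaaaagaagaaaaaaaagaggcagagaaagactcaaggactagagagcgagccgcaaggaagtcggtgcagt
E2F3: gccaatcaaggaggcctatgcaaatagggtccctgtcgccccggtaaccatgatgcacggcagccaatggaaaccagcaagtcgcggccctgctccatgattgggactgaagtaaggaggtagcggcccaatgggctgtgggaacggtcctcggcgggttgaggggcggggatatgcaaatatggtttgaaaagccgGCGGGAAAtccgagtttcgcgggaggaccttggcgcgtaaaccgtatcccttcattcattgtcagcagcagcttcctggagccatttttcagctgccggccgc
TFDP1: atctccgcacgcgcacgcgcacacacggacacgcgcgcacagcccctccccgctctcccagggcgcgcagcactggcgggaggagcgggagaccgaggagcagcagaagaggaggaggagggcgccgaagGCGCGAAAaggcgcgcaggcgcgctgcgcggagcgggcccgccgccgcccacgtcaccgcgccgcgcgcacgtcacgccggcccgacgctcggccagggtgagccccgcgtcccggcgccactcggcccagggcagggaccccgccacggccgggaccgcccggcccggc
The E2F1 window held 2 matches, whose first bases lay 33 and 20 bases before the start. The match lay 42 bases before the start in E2F2, 53 in E2F3 and 120 in TFDP1. The windows of E2F4, E2F6, E2F7 and TFDP2 did not hold these letters. A match was found for 1090 of 27305 genes with a window (3.99%), for 631 of 9483 genes at level on any array (6.65%) and for 16 of 27 classic E2F target genes (59.3%). A match is a stretch of letters and not a measured binding site.

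The values are log2 intensities, on which a difference of 1 is a 2-fold difference. Intensities of different genes were set against each other only through array medians and percentiles and in the check of cell markers. A gene was at level in a comparison when the higher of its values reached that array's median over all 28869 rows, and was counted as different at a log2 ratio of at least 1 in size. With 1 array per condition the ratios have no replicate error and no p-value. The arrays formed 2 close pairs. Over all rows Pearson's r was 0.996 for the combination with untreated cells and 0.996 for VPA with GEM, and 0.984 to 0.987 for the other pairs. The array labels were used as given, and no measurement here checks which array had which agent, so every ratio and departure rests on them. The robust SD of the log2 difference over genes was 0.15 for the combination against untreated cells and 0.16 for VPA against GEM, and 0.25 to 0.27 for the other pairs. The cell label held against its epithelial markers and most markers of other cells. The mean log2 level of 6 biliary epithelial genes was 12.9 with VPA, 12.9 with GEM, 12.2 with the combination and 12.3 in untreated cells. KRT7, a keratin of bile duct cells, had the widest difference of the 6, with log2 ratios to untreated of 1.97 with VPA, 1.61 with GEM and -0.60 with the combination. Of 10 markers of leukocytes, fibroblasts, endothelium and hepatocytes, 1 or 2 reached the array median on any array. The array medians ran from 7.87 to 7.92. The fibroblast marker COL1A1 was above the median on every array. Its log2 level was 9.06 with VPA, 9.15 with GEM, 8.81 with the combination and 8.76 in untreated cells. The leukocyte marker LYZ reached the median only with GEM, at 8.40. It was at 7.86 with VPA, 6.69 with the combination and 7.41 in untreated cells. PTPRC, PECAM1 and ALB lay below the 25th percentile of rows on every array. The mean log2 level of these 10 markers was 6.93 with VPA, 7.00 with GEM, 6.72 with the combination and 6.85 in untreated cells.

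**Figure D1:**
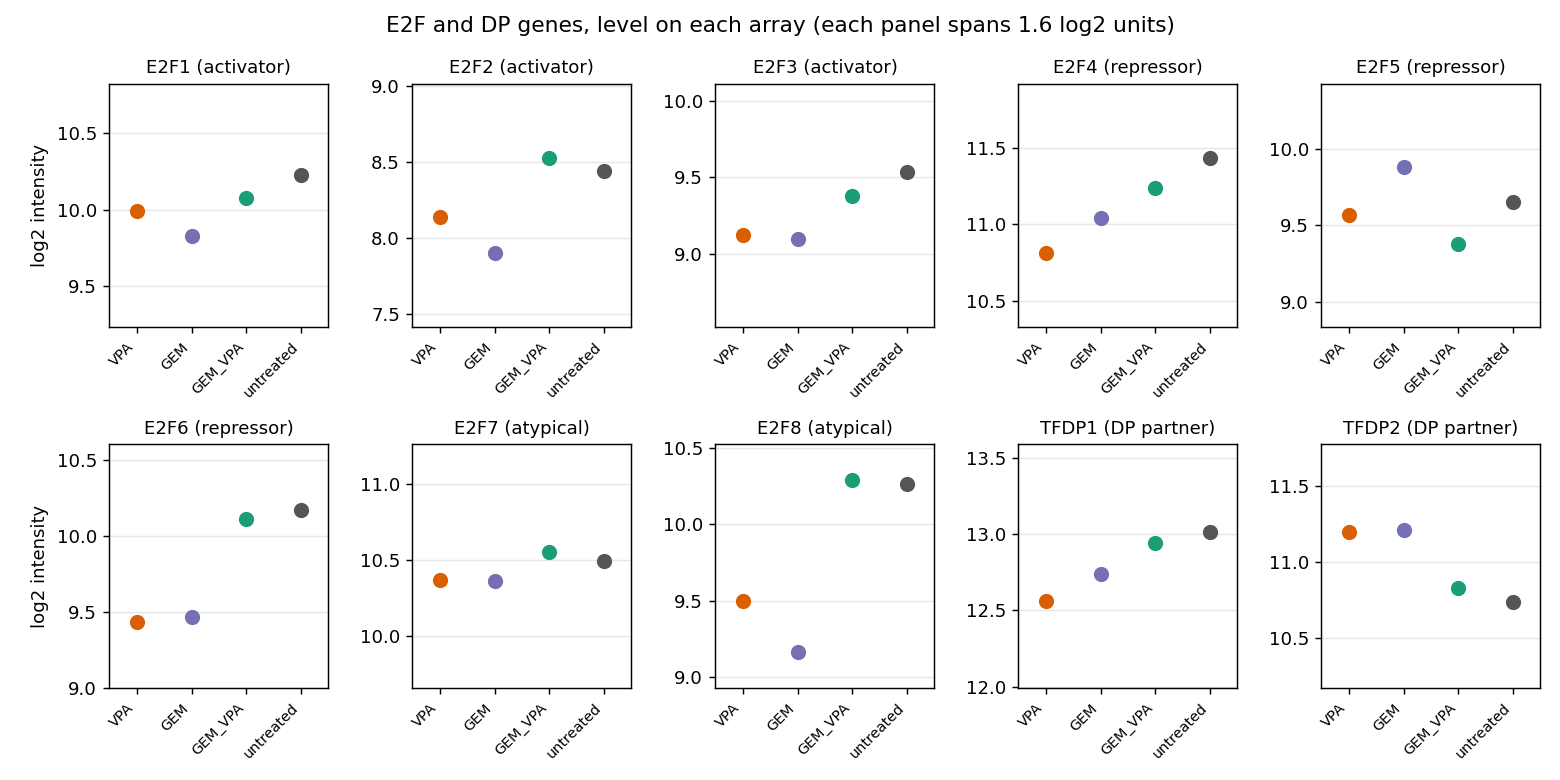
Log2 intensity of the 10 E2F and DP genes on the arrays of VPA, GEM, the combination (GEM_VPA) and untreated cells, 1 point per array, each panel with its own axis of the same span. E2F8 and E2F6 sit low with VPA and with GEM and high on the other 2 arrays, TFDP2 runs the other way, and E2F7 varies by 0.19 in all.

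The first question was how the family differed with VPA alone. With VPA 9 of 10 genes were below their untreated level, with a median log2 ratio of -0.36, against 55.3% of genes at level below 0 and a median of -0.05 over them. None of the 10 passed 2-fold, against 4% of the 11611 genes at level. E2F8 (-0.77), E2F6 (-0.73) and E2F4 (-0.63) were at least 1.5-fold lower, as were 10.4% of genes at level, and 17% of genes passed that limit in either direction. TFDP2 was the gene above untreated, at 0.46. In bulk RNA, fewer cells of a kind, such as cycling cells, and less RNA per cell cannot be told apart, here and in the values that follow.

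With GEM alone 8 of 10 genes were below untreated, with a median log2 ratio of -0.40, against 55.4% of genes at level and a median of -0.04 over them. E2F8 was 2.15-fold lower and was the 1 gene of 10 past 2-fold, against 4.49% of the 11593 genes at level. E2F6 (-0.70) was also at least 1.5-fold lower, as were 11.1% of genes at level, and 17% passed that limit in either direction. TFDP2 (0.47) and E2F5 (0.23) were above untreated. Both comparisons use the same untreated array, so their likeness is not a separate result.

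With the combination the family lay close to untreated cells. The 10 log2 ratios ran from -0.28 for E2F5 to 0.09 for TFDP2, with a median of -0.06. In this close pair of arrays E2F5 stood at percentile 5.55 of genes at level and TFDP2 at 76.0. Of the 10 genes 6 were below 0, against 56.7% of genes at level. None passed 2-fold, against 0.148% of the 11489 genes at level, and none passed 1.5-fold, against 1.6%. Over VPA alone, 2 of 10 genes (E2F5 and TFDP2) were lower with the combination, against 46% of genes at level. None passed 2-fold, against 3.16%, and E2F8 (0.79) and E2F6 (0.68) passed 1.5-fold, against 15.1%. Over GEM alone, E2F5 and TFDP2 were again the 2 of 10 that were lower, against 46.7% of genes at level. E2F8, 2.19-fold higher, was the 1 gene past 2-fold, against 3.6% of genes upwards and 5.38% in either direction. E2F6 (0.64) and E2F2 (0.63) also passed 1.5-fold, against 18.5% of genes.

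**Figure D2:**
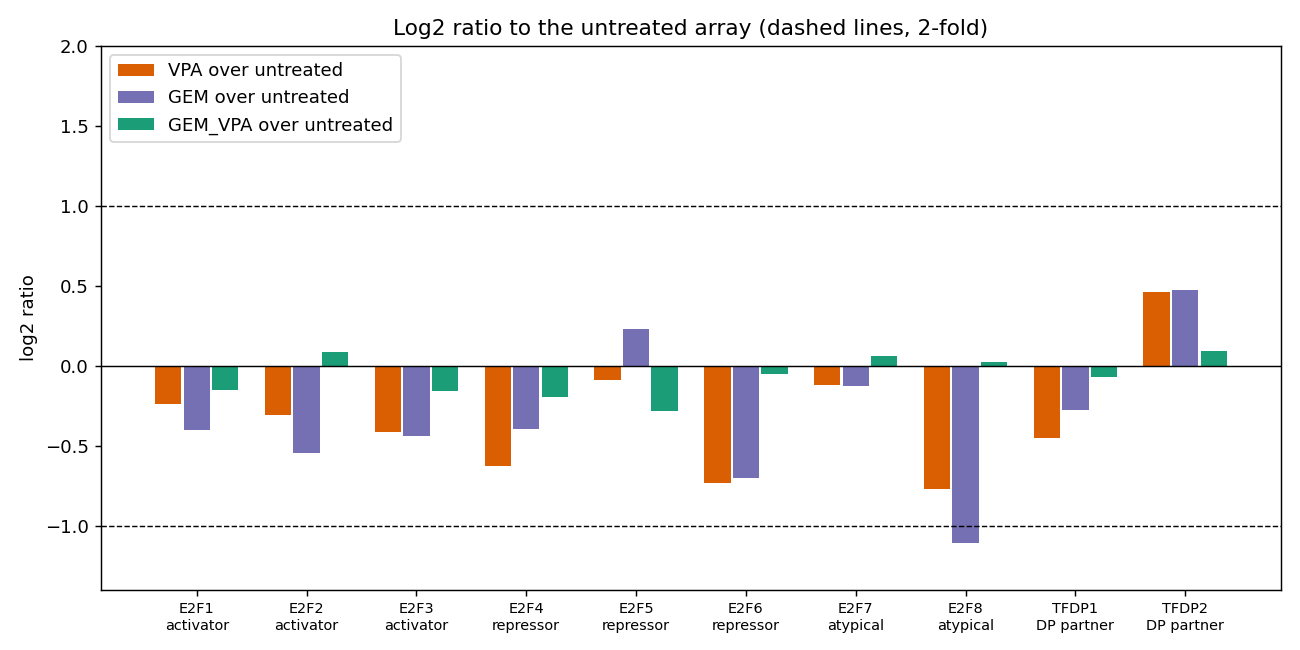
Log2 ratio of the VPA, GEM and combination (GEM_VPA) arrays to the untreated array for each gene, with the family class under its name and dashed lines at 2-fold. The bar of E2F8 with GEM (-1.11) is the 1 bar beyond a dashed line, and every combination bar is shorter than 0.3.

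Among the activators, E2F1, which drives S-phase genes and can also induce apoptosis, had log2 levels of 9.99 with VPA, 9.83 with GEM, 10.08 with the combination and 10.23 in untreated cells. E2F2, a close relative, had 8.14 with VPA, 7.90 with GEM, 8.53 with the combination and 8.44 in untreated cells. E2F3, whose 2 start sites give a long and a short protein that these rows do not separate, had 9.12 with VPA, 9.10 with GEM, 9.38 with the combination and 9.53 in untreated cells. All 3 activators were lowest with GEM, and both single-drug arrays lay below the other 2 arrays in each. The E2F2 value with GEM was just under that array's median of 7.91, where intensities are compressed.

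For VPA the activator log2 ratios ran from -0.41 for E2F3 to -0.24 for E2F1. For GEM they ran from -0.54 for E2F2 to -0.40 for E2F1. Among genes at level, these ratios stood at percentiles 18.8 (E2F3), 25.8 (E2F2) and 31.1 (E2F1) for VPA and 12.6 (E2F2), 17.4 (E2F3) and 19.5 (E2F1) for GEM. With VPA, E2F1 was at -0.14 when the arrays were quantile normalized again. Many other genes at level thus showed differences of this size.

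Among the repressors, E2F4, the main E2F of resting cells, had log2 levels of 10.81 with VPA, 11.04 with GEM, 11.24 with the combination and 11.44 in untreated cells. E2F6, the Polycomb-linked repressor, had 9.43 with VPA, 9.47 with GEM, 10.11 with the combination and 10.17 in untreated cells. E2F5, the other pocket-protein partner, had 9.57 with VPA, 9.89 with GEM, 9.38 with the combination and 9.66 in untreated cells. E2F4 and E2F6 were lowest with VPA, and for both the single-drug arrays lay below the other 2. E2F5 did not follow this order, since it was highest with GEM and lowest with the combination.

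E2F6 stood at percentile 5.99 of genes at level for VPA and 7.75 for GEM, and E2F4 at 8.96 and 19.9. The log2 ratio of the combination over GEM was 0.64 for E2F6, 0.20 for E2F4 and -0.51 for E2F5. RefSeq lists pseudogene copies of E2F3, E2F4, E2F6 and TFDP1, so the values of these genes are uncertain where a copy shares probes.

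With each single drug the atypical pair differed from each other more than the class means did. E2F8 had log2 levels of 9.50 with VPA, 9.16 with GEM, 10.29 with the combination and 10.27 in untreated cells. E2F7, which can dimerise with it and shares targets, had 10.37 with VPA, 10.36 with GEM, 10.55 with the combination and 10.49 in untreated cells. E2F8 thus spanned 1.13 log2 units over the arrays, the widest of the 10 genes, and E2F7 spanned 0.19, the narrowest. E2F8 was at percentile 2.13 of genes at level for GEM and 5.17 for VPA, while E2F7 was at 41.1 and 41.9. After the arrays were quantile normalized again, the log2 ratio of E2F7 was -0.02 for VPA and -0.04 for GEM. The log2 ratio of E2F8 minus that of E2F7 was -0.65 for VPA, -0.98 for GEM and -0.03 for the combination, all over untreated cells.

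The dimer partners went opposite ways on the single-drug arrays. TFDP1, the widely expressed DP protein gene, had log2 levels of 12.56 with VPA, 12.74 with GEM, 12.94 with the combination and 13.01 in untreated cells. TFDP2, which encodes the alternative partner, had 11.20 with VPA, 11.21 with GEM, 10.83 with the combination and 10.74 in untreated cells. Both single-drug values lay below the other 2 for TFDP1 and above them for TFDP2. The log2 ratio of TFDP2 minus that of TFDP1 was 0.91 for VPA, 0.75 for GEM and 0.16 for the combination over untreated cells. TFDP2 stood at percentile 90.0 of genes at level for VPA and 91.3 for GEM, and TFDP1 at 16.8 and 27.9.

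Set against each other by class, activators, repressors and atypical members were not separated. For VPA over untreated the mean log2 ratio was -0.32 over the 3 activators, -0.48 over the 3 repressors and -0.45 over the 2 atypical members. For GEM over untreated it was -0.46 for activators, -0.29 for repressors and -0.62 for atypical members. The activator range lay inside the range of the repressors and of the atypical pair for VPA and for GEM. The order of the class means also differed between the drugs. For the combination over untreated the means were -0.07 for activators, -0.18 for repressors and 0.04 for atypical members. Members of a class are different genes and not replicates, so no test was made of these means.

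The design also sets each drug with and without the other, in pairs of arrays that share no array. The VPA change of E2F8 was 1.13 in the presence of GEM and -0.77 in its absence. Its GEM change was 0.79 in the presence of VPA and -1.11 in its absence. The 2 values were opposite in sign for 9 of 10 genes for VPA, against 74.1% of the 11808 genes at level on any array, and for 10 of 10 for GEM, against 84.4%. E2F5 was the exception for VPA, with -0.51 in the presence of GEM and -0.09 in its absence.

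**Figure D3:**
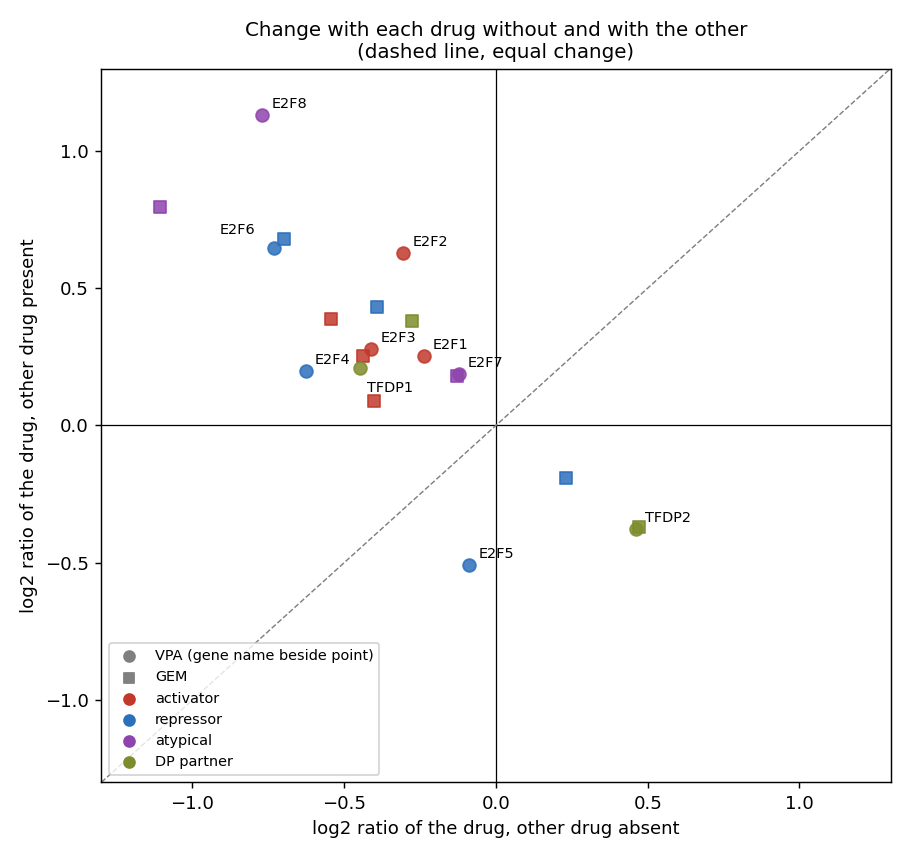
Log2 ratio of each drug in the presence of the other drug (vertical) against its log2 ratio in the absence of the other (horizontal), circles for VPA and squares for GEM, coloured by family class. E2F8, E2F6 and the activators lie at upper left, TFDP2 at lower right, and no point lies on the dashed line of equal change.

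In 8 of 10 genes both single-drug arrays were below both others, against 39.1% of genes at level on any array. TFDP2 was the 1 gene of 10 with both above, against 31% of genes. The departure from additivity (combination minus GEM minus VPA plus untreated, log2) was 1.90 for E2F8 and 1.38 for E2F6, and these were the 2 genes of 10 at or above 1, against 13% of genes, or 20.3% counting both signs. With E2F2 at 1.00 after quantile normalization again and at 1.03 after median centring, 3 of 10 were at or above 1 under either. Counting both signs, 4 of 10 reached 1 in size after quantile normalization again and 3 after median centring. The shares of all genes are for the deposited values only. It was 0.49 to 0.93 for E2F1, E2F2, E2F3, E2F4 and TFDP1 and 0.31 for E2F7. After quantile normalization again it was 0.31 for E2F1 and 0.13 for E2F7. In the deposited values it was -0.42 for E2F5 and -0.84 for TFDP2. With 1 array per condition, differences between single arrays and an interaction of the drugs cannot be told apart.

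With limma, an additive model of VPA and GEM left 1 residual degree of freedom for a test of each agent averaged over presence and absence of the other. None of the 10 genes passed an adjusted p of 0.05 for either drug, against 0% of the 11267 genes tested. At an unadjusted p under 0.05 there were 21 genes for VPA and 0 for GEM, and 0 of the 10 family genes for either. The average VPA effect on E2F8 was 0.18 (95% interval -1.29 to 1.65), from a mean log2 level of 9.89 with VPA and 9.71 without it. The average GEM effect on E2F8 was -0.16 (95% interval -1.62 to 1.31), from 9.73 with GEM and 9.88 without it. The residual of this model holds the departure from additivity, which widens these intervals.

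Most classic E2F target genes were further below untreated than most E2F genes, though not all were further than E2F8. Of 30 measured targets, all at level, 14 were at least 2-fold lower with VPA, a limit passed downwards by 2.09% of genes at level, and 17 with GEM, against 3.01%. All 30 were below untreated on both single-drug arrays, against 55.3% of genes at level with VPA and 55.4% with GEM. Their median log2 ratio was -0.96 for VPA and -1.15 for GEM. With both agents the median was -0.08 and none passed 2-fold. MCM6, a subunit of the replicative helicase, was at -1.32 with VPA and -1.85 with GEM. ORC1, a subunit of the origin recognition complex, was at -1.56 and -1.73, and POLA1, the catalytic subunit of DNA polymerase alpha, at -1.32 and -1.72. With VPA 26 of the 30 targets lay below the lowest activator, and with GEM also 26. Below E2F8, the lowest of the 10 family genes, lay 17 of the 30 with VPA and 16 with GEM.

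**Figure D4:**
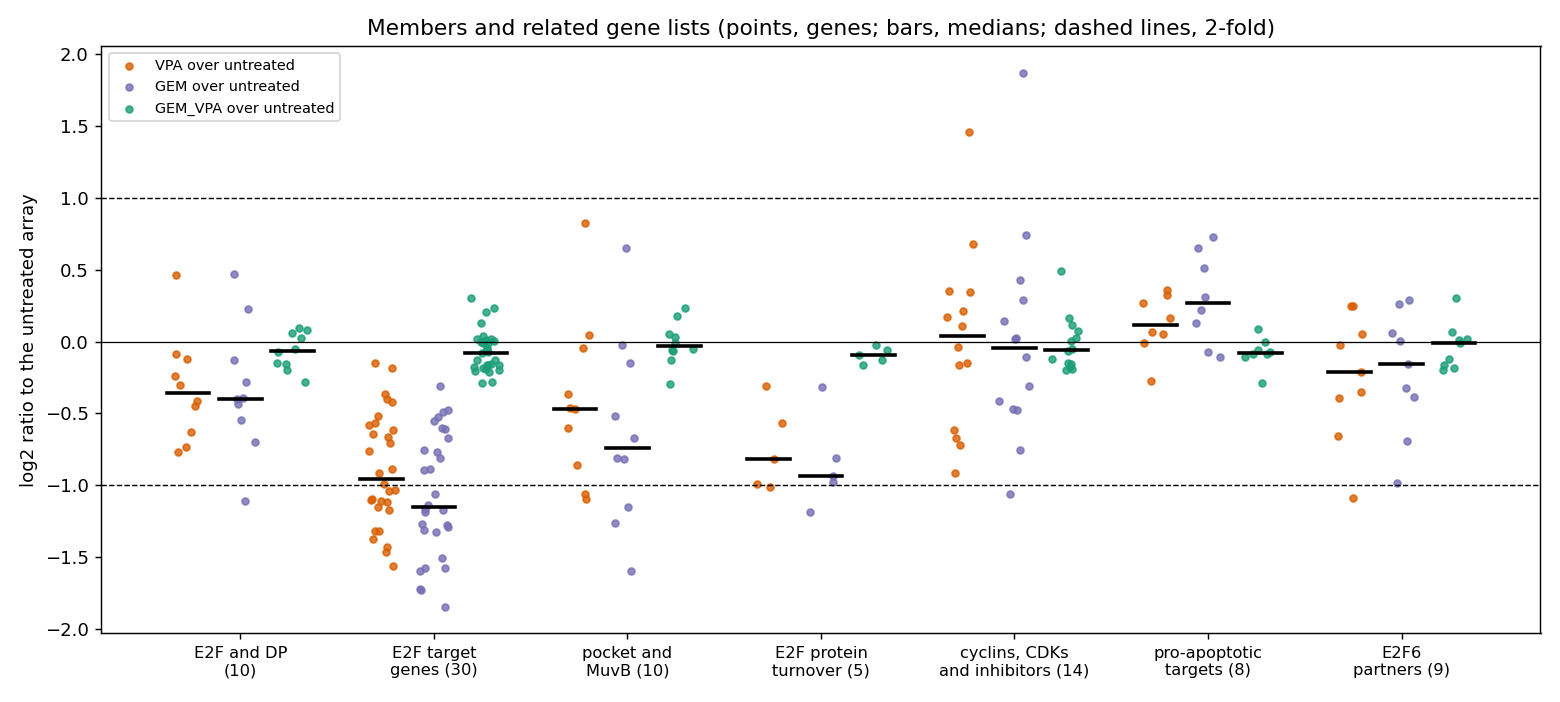
Log2 ratio to the untreated array of each E2F or DP gene and of the genes in related lists for VPA, GEM and the combination (GEM_VPA), with bars at the medians, dashed lines at 2-fold and the number of measured genes in brackets. The median of the E2F target genes lies lower than that of the E2F and DP genes with each single drug (-0.96 and -1.15 against -0.36 and -0.40), and the list medians lie near 0 with the combination.

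Proliferation genes moved with these values. All 8 proliferation markers were below untreated on both single-drug arrays, against 55.3% of genes at level with VPA and 55.4% with GEM. Their median log2 ratio was -0.76 with VPA, -1.02 with GEM and -0.01 with the combination. At least 2-fold lower were 2 of the 8 with VPA and 5 with GEM, against 2.09% and 3.01% of genes at level. CCNB1, the mitotic cyclin gene, was at -1.23 with VPA and -1.36 with GEM, CENPF, a kinetochore protein gene, at -1.08 and -1.28, and PLK1, a mitotic kinase gene, at -0.84 and -1.03. MKI67 was at -0.39 and -0.81 and TOP2A at -0.75 and -1.02. The part of these markers in the E2F values was not tested.

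Most transcripts of the pocket proteins and the MuvB complex, which hold E2F target genes silent or activate later genes, were below untreated. Of 10 genes 8 were below 0 with VPA, against 55.3% of genes at level, and 9 with GEM, against 55.4% (medians -0.47 and -0.74). At least 2-fold lower were 2 with VPA, against 2.09% of genes at level, and 3 with GEM, against 3.01%. RBL1, which encodes p107, was at -1.10 with VPA and -1.60 with GEM, LIN9, a MuvB core subunit, at -1.06 and -1.26, and FOXM1, a mitotic transcription factor that binds MuvB, at -0.86 and -1.15. The MuvB genes LIN52, LIN54 and RBBP4 and the MuvB-binding factor gene MYBL2 ran from -0.60 to -0.37 with VPA and from -0.82 to -0.52 with GEM. RB1 was at 0.04 and -0.03, RBL2, which encodes p130, at -0.05 and -0.15, and LIN37, also a MuvB subunit, at 0.83 and 0.65. RBL1 and MYBL2 are themselves among the target genes.

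Upstream, 14 measured cyclins, kinases and inhibitors had a median log2 ratio of 0.04 with VPA, which was -0.01 after centring each array, and of -0.04 with GEM. CDKN1A encodes p21, an inhibitor of the kinases that phosphorylate the retinoblastoma protein. Its log2 ratio was 1.46 for VPA, 1.87 for GEM and -0.12 for the combination. CDKN1A was the 1 gene of these past 2-fold upwards with VPA or with GEM, against 1.9% and 1.48% of genes at level. CDC25A, a phosphatase that activates those kinases and a target gene as well, was at -0.92 and -1.06. The other inhibitor genes were mixed. CDKN1B was at -0.67 and -0.76, CDKN1C at -0.04 and 0.03, CDKN2D at 0.11 and -0.11, and CDKN2B at 0.35 and 0.43. The kinase gene CDK4 was at -0.72 and -0.47, and at -0.05 with the combination. CDK6 was at 0.68 and 0.74, and at 0.49 with the combination. Of the 14 genes 7 were below untreated with VPA and 7 with GEM, against 55.3% and 55.4% of genes at level. Among 5 genes for turnover of E2F proteins or loss of their binding, SKP2, a ubiquitin ligase subunit that recognises E2F1, was at -1.01 and -0.98, and CCNA2, the cyclin that curbs E2F1 binding, was at -0.99 and -1.18. All 5 were below untreated on both arrays, against 55.3% of genes at level with VPA and 55.4% with GEM. At least 2-fold lower were 1 of the 5 with VPA, against 2.09%, and 1 with GEM, against 3.01%. CCNA2 is also among the target genes.

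Of 8 measured pro-apoptotic targets of E2F1, 2 were below untreated with VPA, against 55.3% of genes at level, and 2 with GEM, against 55.4% (medians 0.12 and 0.27). None passed 2-fold, a limit that few genes passed, 4% with VPA and 4.49% with GEM. The highest with each drug was PMAIP1, which encodes the BH3-only protein NOXA, at 0.36 with VPA and 0.73 with GEM. BCL2L11, which encodes BIM, was at 0.17 and 0.65. Both were named after their values were seen. PMAIP1 is also a known p53 target.

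For E2F6, 9 measured partner genes of its Polycomb complex had a median log2 ratio of -0.21 with VPA and -0.16 with GEM. Of these 9, 6 were below untreated with VPA and 5 with GEM, against 55.3% and 55.4% of genes at level. WDR5 was the 1 gene past 2-fold with VPA (-1.09), against 2.09% of genes at level downwards, and was at -0.98 with GEM. The 5 germ-line genes that E2F6 is known to silence in mouse were below the array median on all 4 arrays, and 4 of 5 were below the 25th percentile. At such levels small differences are not measured well. Below untreated were 4 of 5 with VPA (median -0.10) and 2 of 5 with GEM (median 0.13). Of all 18377 genes, at level or not, 9529 were below untreated with VPA and 9449 with GEM. The log2 ratios of the 5 ran from -0.47 to 0.27 with VPA and from -0.22 to 0.23 with GEM.

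The genes whose pattern over the 4 arrays was most like that of E2F8, by distance between log2 values after removing each gene's mean, were ID1, RAD54B, ATAD2, NEK2 and DNA2, among 11807 genes at level. Their distances were 0.045 to 0.055. ATAD2, a chromatin protein gene, had log2 levels of 10.50 with VPA, 10.18 with GEM, 11.32 with the combination and 11.22 in untreated cells. NEK2, a mitotic kinase gene, had 10.08 with VPA, 9.70 with GEM, 10.91 with the combination and 10.86 in untreated cells. These genes were picked for their likeness to E2F8 on these same 4 arrays, so the order of their levels is no separate result.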

How the data were processed

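Per the labels and series text, the authors hybridised RNA of 4 HuCCT1 samples to Human Gene 1.0 ST arrays and normalized them with GeneSpring GX 11.5, and the submitters' processing notes name RMA. The deposited values are log2 intensities per row. RMA equalises the distribution of intensities between arrays and compresses low values, so small differences shrink. No label or header names a genome build.

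Of 28869 rows, 19310 had 1 gene symbol, 1752 several and 7807 none. Entrez IDs of 19279 rows matched RefSeq and 0 symbols changed. Genes took the mean of their rows. The number of arrays limits the precision. The 5 comparisons and the departure from additivity were computed as log2 differences, at the series' 2-fold limit. The average drug effects were tested with limma 3.58.1 (R 4.3.3, eBayes, Benjamini-Hochberg) on genes whose mean level reached the median over rows. Both steps were tested on simulated data. Python 3.11.15, numpy 2.4.6, pandas 2.3.3 and matplotlib 3.10.9 were used.

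The members and lists were chosen with earlier results of these data known. Named genes were the 10 members, per list up to 4 genes with the largest log2 ratio in size among those past 2-fold with VPA or GEM over untreated, MKI67 and TOP2A, and the 5 genes most like each member past 2-fold. Other named genes were chosen after their values were seen. Alternatives covered normalization, row choice, fold limit, level filter, list summary and the limma settings.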

Additional observations from a re-analysis of the deposited data

Results flagged for a closer look

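For each gene below the change with a drug had opposite signs in the absence and in the presence of the other drug, and the difference itself was not tested, since each condition had 1 array. The departure from additivity on the log2 scale was 1.90 for E2F8, 1.38 for E2F6, 0.93 for E2F2, 0.82 for E2F4, 0.69 for E2F3, 0.66 for TFDP1, 0.49 for E2F1 and 0.31 for E2F7. It was -0.84 for TFDP2 and -0.42 for E2F5, where the opposite signs hold for GEM alone. The same held for the medians of 5 lists. The lists are not separate results, since CCNA2, RBL1 and MYBL2 are each counted among the classic targets and in another list. Their median departure was 1.94 for classic E2F targets, 1.70 for E2F protein turnover genes, 1.18 for pocket-protein and MuvB genes, 0.36 for E2F6 partners and -0.52 for pro-apoptotic E2F1 targets. Of genes at level on any array, 20.3% had a departure of at least 1 in size.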

How the results depend on the processing

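No paired analysis was possible because each condition had 1 array and the labels carry no replicate numbers. Under quantile normalization again or centring each array on its median, no log2 ratio and no departure of the 10 genes changed sign. Nor did the 2-fold counts of E2F and DP genes change. Using the highest row per gene could not alter the values of the 10 genes, since each had 1 row. Those values are still counted below as not moved. At a 1.5-fold limit these counts were 3 for VPA and 2 for GEM over untreated, and 2 and 3 for the combination over VPA and over GEM. At 3-fold they were 0 for GEM over untreated and 0 for the combination over GEM. The median of the classic E2F targets with GEM was -1.05 after quantile normalization again. A log2 value was taken as moved past 0.1. A count was taken as moved when it differed by more than 1.5-fold, or was 0 in only 1 of the settings compared. Of the values that answer a comparison 120 did not move and 7 did. These 7 were counts at the 1.5-fold and 3-fold limits and the median of the classic E2F targets with GEM. Of the other values 373 did not move and 27 did. Among the latter, after quantile normalization again, E2F7 had a departure of 0.13, E2F1 of 0.31 and TFDP2 of -1.03. E2F2 then had a departure of 1.00, and of 1.03 after median centring, so that 3 of the 10 genes were at or above 1 in either case. Counting TFDP2 as well, 4 of 10 reached 1 in size after quantile normalization again. The mean log2 ratio of the DP partners with VPA, 0.01, was -0.04 after median centring. The limma counts stayed at 0 in every fit run. Small differences, such as those of E2F7, are of the size seen between the closest arrays.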

Other observations

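E2F6 was set beside all genes at level in the same way as E2F8, a step added after its values were seen. Of 11807 genes, the 2 most like E2F6 over the 4 arrays were KLF11 and ODC1, and both lie on chromosome 2 close to E2F6, with 11 and 7 other genes at level between. KLF11 had log2 levels of 8.41 with VPA, 8.48 with GEM, 9.09 with the combination and 9.15 in untreated cells. ODC1, which encodes ornithine decarboxylase, had 12.64 with VPA, 12.69 with GEM, 13.33 with the combination and 13.41 in untreated cells. NOL10, with 5 genes between, ranked 33, with log2 ratios of -0.68 for VPA and -0.61 for GEM. The look covered 20 genes at level, 15 on the side of KLF11 and ODC1 and 5 on the other. Only these 3 of the 20 were among the 100 of 11807 genes most like E2F6. Since the likeness of KLF11 and ODC1 prompted the look at this stretch, the ranks and the count of 3 are a description. The direct neighbours at level were less alike, since ROCK2 ranked 5004, with log2 ratios of 0.03 and -0.05, and NTSR2 ranked 7051. Whether a shared stretch of the chromosome has a part in this was not tested.

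TFDP2 was most like KSR1, PLD3 and DHDDS over the 4 arrays, at distances of 0.017 to 0.022, again chosen after its values were seen.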
